A study of Homo sapiens with 12 samples.

Results

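The nuclear-encoded genes of the mitochondrial respiratory chain were described across 4 conditions of A549 cells. They were taken by symbol alone, as every gene of the exonic count files whose symbol begins with NDUF, UQCR, ATP5 or one of COX4 to COX8, and 93 of 19550 genes met this rule. By name they fell into 40 subunits of complex I, 7 complex I assembly factors (NDUFAF), 8 genes of complex III (UQCR), 18 of complex IV (COX) and 20 of complex V (ATP5). The symbols are those of the authors' annotation, in which subunits of ATP synthase still carry ATP5 names. The rule itself uses no measured value, but it was chosen with earlier results of these data known.

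The respiratory chain sits in the inner mitochondrial membrane and carries electrons from NADH and succinate to oxygen. Complex I oxidises NADH, complex III passes electrons from ubiquinol to cytochrome c and complex IV hands them to oxygen. These complexes pump protons, and complex V, the ATP synthase, uses the proton gradient to make ATP. Complexes I, III, IV and V hold subunits from both genomes, whereas complex II is encoded in the nucleus alone. The genes described here are the nuclear share, most of which are short, highly expressed and active in nearly every cell type. Transcripts of the mitochondrial genome are not part of these values, since the authors removed mitochondrial reads before counting.

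A549 is a human lung adenocarcinoma line. The cells had been infected with lentivirus carrying a non-targeting shRNA (shControl) or one shRNA construct against RNF113A (shRNF113A), a zinc-finger protein of the spliceosome, and were kept in 1 µg/ml puromycin for 4 days, and no cloning is described. Each population was left untreated or received 25 µg/ml Cisplatin, a DNA crosslinking drug, for 20 h in full medium, as the sample labels state, and 3 libraries of stranded mRNA were made per condition. The study's methods call the 3 biological replicates, while the labels do not name separate cultures, and the tests measure the spread between these libraries. Both populations therefore carried a vector and had passed selection, the untreated ones included. In assays such as that of apoptosis, the study's methods give the dose of Cisplatin for A549 cells as 25 µM, not 25 µg/ml.

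Between 26220526 and 45721152 read pairs per library fell on genes, counted on the gene's strand. The 92 of the 93 genes with such counts took 1.00% to 1.23% of them. The targeted gene was only partly reduced. RNF113A stood at 20.3, 19.5 and 19.8 CPM (counts scaled to the library's total and its TMM factor) in untreated shControl libraries against 15.3, 15.8 and 16.8 in untreated shRNF113A libraries, and at 31.5, 28.9 and 27.7 against 25.8, 24.3 and 29.9 with Cisplatin. Its depletion log2 fold change was −0.31 in untreated cells (adjusted p = 0.0247) and −0.14 in Cisplatin-treated cells (adjusted p = 0.233, not called). KRT8 and KRT18, keratins of epithelial cells, lay at 1402 CPM or more in every library. Of the other epithelial markers, CDH1 lay between 32.1 and 197 CPM, EPCAM between 3.66 and 97.6, and KRT19 between 0.674 and 5.32. The defining leukocyte genes PTPRC and CD3E reached at most 0.127 CPM, and CD14 lay between 1.14 and 4.36. CD68, a lysosomal protein made by many cells besides macrophages, lay between 27.9 and 74.0 CPM. The 5 fibroblast and 3 endothelial markers summed to at most 35.5 and 0.788 CPM, and the fibroblast sum came mostly from COL1A1. The shControl libraries numbered 2 stood apart from the others: the epithelial markers summed to 7174 CPM in the untreated one against 12926 and 12168 in the others of its condition. Counts that rest on these libraries are therefore also given without them.

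Per length, the chain was expressed at high but uneven levels. Values per kilobase of annotated exon (RPKM, from the gene-strand counts of untreated shControl libraries) had medians of 119 for the 12 tested complex IV genes, 96.9 for complex III, 67.6 for complex V, 58.6 for complex I subunits and 10.3 for the assembly factors, which act while the complex is built and are not part of the finished enzyme. The highest gene of each structural group was ATP5B, the catalytic beta subunit of ATP synthase, at 734 RPKM, COX8A at 447, UQCRH, the hinge protein of complex III, at 296, and NDUFS5 at 282. The highest assembly factor was NDUFAF2, at 39.3 RPKM. The plot of levels by complex shows how widely genes of each group were spread.

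**Figure D1:**
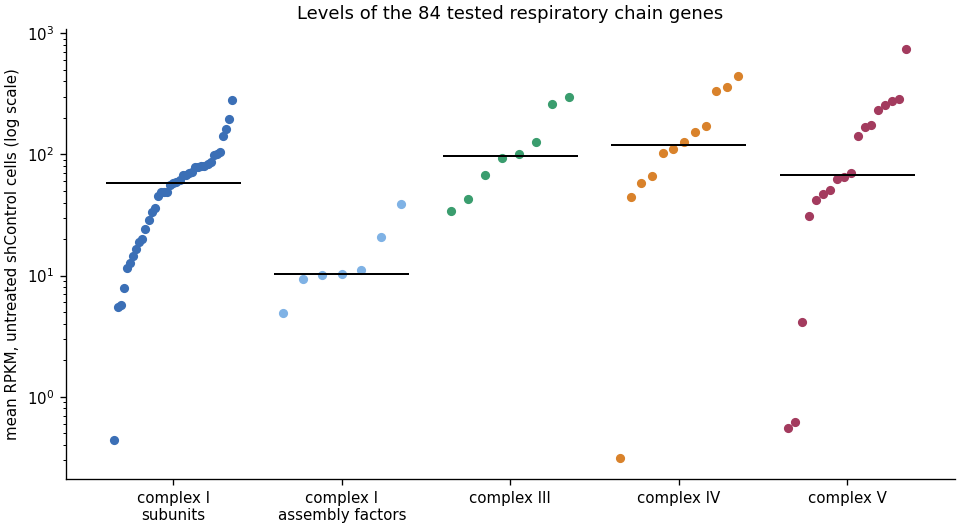
Level of each tested gene in untreated shControl libraries, in RPKM of gene-strand counts on a log axis, with genes grouped by complex. Each point is 1 gene and each bar marks a group's median. Complex IV has the highest median and the assembly factors the lowest, and the genes under 1 RPKM are NDUFA4L2, COX6B2, ATP5EP2 and ATP5E, whose count depended on the counting.

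Several subunits have paralogues that are used in other tissues, and in these cells one member of each pair held nearly all reads. COX4I1 had 337 ± 25.7 CPM (SD, n = 3) in untreated shControl cells, while COX4I2, its lung and hypoxia isoform, had at most 1 read in any library. The same held for COX6A1 at 192 CPM against COX6A2, for COX7A2 at 123 CPM against COX7A1, whose products serve heart and skeletal muscle, for COX7B at 162 CPM against COX7B2, and for COX8A at 227 CPM against COX8C. COX6B2, a testis isoform, had 0.892 CPM against 337 for COX6B1, and NDUFA4L2 had 0.575 CPM against 210.0 for NDUFA4. Only 84 of the 93 genes passed the filter on low counts, since ATP5J2-PTCD1, ATP5L2, COX4I2, COX6A2, COX7A1, COX7B2, COX8C and NDUFC2-KCTD14 had at most 1 read in any library, and COX6A1P2 had no row in the gene-strand counts.

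For 5 genes the number of reads differed widely between the deposited kinds of counts. The gene-strand counts of ATP5E, ATP5J2 and NDUFC2 were 1.78%, 24.4% and 31.3% of the exonic counts, and those of NDUFA11 and NDUFA13 were 147% and 239%. With exonic counts the depletion log2 fold change of ATP5E was 0.27 (adjusted p = 0.0194) at a mean of 216 CPM, against 0.46 (adjusted p = 0.0325) at 3.82 CPM with gene-strand counts. For NDUFA13 the depletion call appeared with exonic counts (0.26, adjusted p = 0.0241) and was missing with gene-strand counts (0.19, adjusted p = 0.0759). Values of these 5 genes are uncertain for that reason, and many genes of the chain have processed pseudogenes that could share their reads.

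Upon Cisplatin treatment, 25 of the 84 tested genes were lower and 9 were higher, in the model that fits the drug and the depletion together over all 12 libraries (edgeR's quasi-likelihood test, called at an adjusted p under 0.05). These 34 genes are 40.5% of those tested, against 66.8% of all 15352 genes, of which 4925 were lower and 5335 higher. The changes were small: only NDUFAF2 moved by 2-fold or more, and the median log2 fold change was −0.04 against 0.03 over all genes. By group, 9 of 18 genes of ATP synthase were lower and 1 was higher, and of 39 complex I subunits 11 were lower and 5 higher. In complex IV 3 of 12 were lower and none higher, among the assembly factors 2 were lower and 3 higher of 7, and in complex III none of 8 passed the test in either direction, with no gene at an unadjusted p under 0.05 either. The balance of directions depended on the scaling: with library size in place of TMM, 15 members were lower and 19 higher, as the median of all genes moved from 0.03 to 0.13. Without both shControl libraries numbered 2, 24 were lower and 14 higher. In bulk RNA, a change in the RNA of each cell and a change in which cells survived the drug cannot be told apart.

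**Figure D2:**
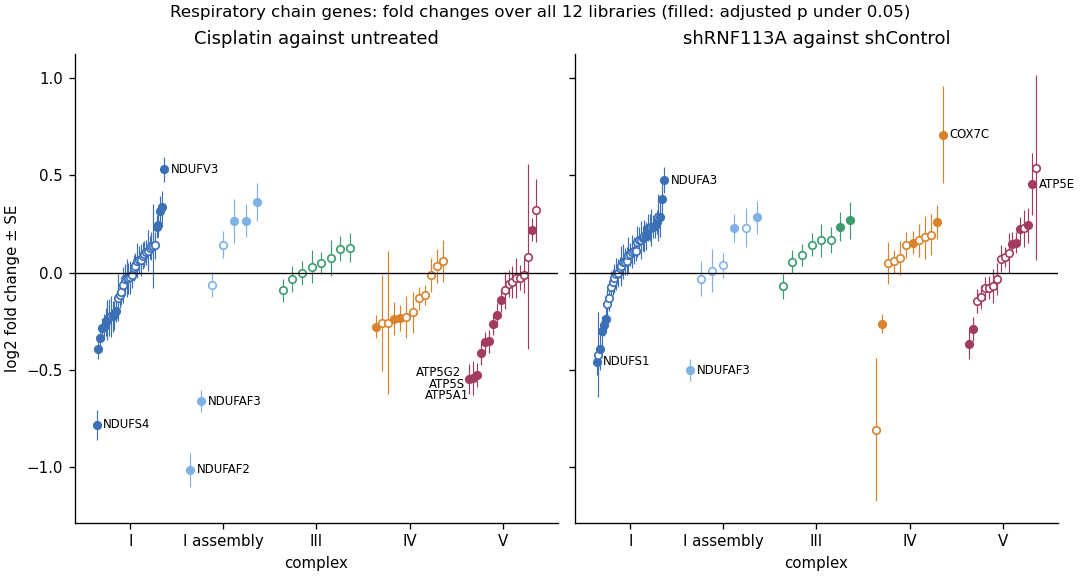
Log2 fold change with its standard error for each of the 84 tested genes, upon Cisplatin (left) and upon RNF113A depletion (right), from the model with both terms over 12 libraries, with genes ordered by value within each complex on the x axis. Filled points passed the test. NDUFAF2, NDUFS4 and NDUFAF3 are the lowest points upon Cisplatin and NDUFV3 the highest, and COX7C is the highest upon depletion, with a wide error.

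The largest falls with Cisplatin lay in complex I and its assembly factors. NDUFAF2, an assembly factor that is a paralogue of the subunit NDUFA12 and holds its place in late assembly intermediates, stood at 30.3, 28.4 and 30.3 CPM in untreated shControl libraries and at 15.9, 18.6 and 16.2 with Cisplatin. In shRNF113A libraries it stood at 33.1, 31.7 and 35.4 CPM and, with Cisplatin, at 13.8, 15.8 and 13.2. All treated libraries lay below all untreated ones, with a log2 fold change of −1.02 ± 0.09 (SE, adjusted p = 3.1e-07). NDUFA12 itself moved the other way. It stood at 60.4, 65.9 and 67.4 CPM and at 77.3, 74.3 and 77.0 with Cisplatin in shControl libraries, and at 79.0, 68.9 and 83 and 89.3, 85.0 and 101 in shRNF113A libraries, so treated and untreated libraries did not overlap in either population. Its log2 fold change was 0.25 ± 0.06 (SE, adjusted p = 0.00314). NDUFAF3, which works with NDUFAF4 in early assembly of the peripheral arm, fell from 44.4 ± 3.95 CPM (SD, n = 3) to 27.9 in shControl cells and from 31.1 to 19.8 in shRNF113A cells, a log2 fold change of −0.66 ± 0.06 (SE, adjusted p = 2.6e-07). NDUFAF4 and NDUFAF1, an early factor of the membrane arm, were higher, at 0.27 (adjusted p = 0.0112) and 0.36 (adjusted p = 0.00555), and so was the methyltransferase NDUFAF7, close to the threshold, at 0.27 (adjusted p = 0.0493).

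Within complex I the subunits of the electron-transferring arm did not move together. NDUFS4, an accessory subunit that steadies the NADH-oxidising module, stood at 64.0, 78.5 and 69.7 CPM and at 42.8, 46.8 and 45.6 with Cisplatin in shControl libraries, and at 60.3, 57.6 and 70.9 and 33, 34.3 and 32.4 in shRNF113A libraries. Every treated library lay below every untreated one, and the log2 fold change was −0.78 ± 0.08 (SE, adjusted p = 9.5e-07). NDUFV3, a small subunit of the same module, rose from 32.8, 30.3 and 35.9 to 52.7, 46.5 and 49.5 CPM in shControl libraries and from 28.4, 27.7 and 31.1 to 40.2, 39.0 and 41.8 in shRNF113A libraries. These ranges did not overlap within a population, and the log2 fold change was 0.53 ± 0.06 (SE, adjusted p = 5.8e-06), the largest rise among the 84 genes. Of the core subunits described here, NDUFS3 rose (0.24, adjusted p = 0.00292) and NDUFV2 fell (−0.28, adjusted p = 0.0024). NDUFS1, NDUFS7, NDUFS8 and NDUFV1 did not pass the test, with log2 fold changes of 0.02, −0.13, 0.06 and 0.03. NDUFAB1, the mitochondrial acyl carrier protein that is also a subunit, was at −0.04 (adjusted p = 0.712).

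In ATP synthase the catalytic head did not move as a unit. ATP5A1, the alpha subunit, stood at 596, 614 and 563 CPM and at 474, 435 and 453 with Cisplatin in shControl libraries, and at 590.1, 578 and 605 and 368, 377 and 364 in shRNF113A libraries. Its log2 fold change was −0.53 ± 0.06 (SE, adjusted p = 5.2e-06), and no treated library reached an untreated one. ATP5B, whose product is present in equal number in the enzyme, stood at 1408, 1139.5 and 1392 CPM and 1374, 933 and 1280.4 in shControl libraries and at 1458, 1444 and 1573 and 1379.9, 1347 and 1597 in shRNF113A libraries. These ranges overlap in both populations, with a log2 fold change of −0.09 ± 0.09 (SE, adjusted p = 0.402), and the 2 lowest of the 12 libraries are the shControl ones numbered 2. The gamma subunit ATP5C1 and the peripheral stalk subunit ATP5O fell, at −0.36 (adjusted p = 1.0e-04) and −0.36 (adjusted p = 3.6e-05). All genes for the c-ring fell: ATP5G1, ATP5G2 and ATP5G3 encode the same mature protein and were at −0.42 (adjusted p = 3.3e-05), −0.55 (adjusted p = 2.8e-05) and −0.22 (adjusted p = 0.00708). The call of ATP5G3 was lost with library size in place of TMM. ATP5G2 is the largest of these falls, from 301, 376 and 316 to 257, 270.3 and 241 CPM in shControl libraries and from 292, 280.1 and 299 to 177, 177 and 173 in shRNF113A libraries. ATP5S, a small factor whose place in the enzyme is less settled, fell by 0.54 ± 0.09 (SE, adjusted p = 9.2e-05) on the log2 scale. The single rise was ATP5SL, now named DMAC2 and tied to complex I assembly rather than to ATP synthase, at 0.22 ± 0.06 (SE, adjusted p = 0.00432).

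Complexes III and IV held the fewest called genes. In complex IV, COX5A, COX6B1 and COX7B fell, at −0.28 (adjusted p = 0.00114), −0.23 (adjusted p = 0.00744) and −0.24 (adjusted p = 0.023), and the calls of COX6B1 and COX7B were lost with library size in place of TMM. That of COX7B was also lost without both shControl libraries numbered 2. COX4I1, which starts assembly around the catalytic core, was at −0.13 (adjusted p = 0.065). In complex III the core proteins UQCRC1 and UQCRC2 and the Rieske iron-sulphur protein UQCRFS1 were at 0.05 (adjusted p = 0.467), −0.003 (adjusted p = 0.965) and −0.03 (adjusted p = 0.665). UQCRFS1 stood at 373, 431 and 393 CPM in untreated and 361, 417 and 346 in treated shControl libraries, ranges that overlap.

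Tested within each population, the drug called 22 members lower and 4 higher in shControl cells (31.0% of 84, against 55.0% of all genes) and 18 lower and 12 higher in shRNF113A cells (35.7%, against 60.2%). With library size in place of TMM these splits were 14 lower and 11 higher, and 13 lower and 17 higher, and with the size factors of DESeq2 the second was 21 lower and 8 higher. The 4 rises in shControl cells became 2 without the first untreated shControl library, 8 without the second and 8 with the shControl libraries numbered alike taken as pairs. The 12 rises in shRNF113A cells became 7 and 6 without the first and the third Cisplatin-treated shRNF113A library. The difference between the populations was tested by the interaction term, where 0 of 84 members were called with edgeR, against 4.25% of all genes. At an unadjusted p under 0.05 there were 12, and DESeq2 called 2 higher and 4 lower. The sign of the interaction was positive for all 12 tested complex IV genes, from 0.004 to 0.82, none of which passed the test. It was positive for 7706 of all 15352 genes and for 68 of 76 genes of cytosolic ribosomal proteins. For mitochondrial ribosomal proteins it was positive in 37 of 79, and for proteasome subunits in 33 of 52. Genes of the same libraries are not independent replicates. Without the untreated shControl library numbered 2, 2 members were called higher and 4 lower, as without both libraries of that number. Without the untreated shControl library numbered 1, 1 was called higher, and without either Cisplatin-treated library numbered 2, 1 was called lower.

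Upon RNF113A depletion, fitted over both treatments, 22 members were higher and 9 were lower, which is 36.9% of 84 against 47.5% of all genes. None moved by 2-fold or more, and the median log2 fold change was 0.10 against −0.002 over all genes. Higher genes were found in each group, with 10 complex I subunits, 2 assembly factors, 2 genes of complex III, 3 of complex IV and 5 of complex V. The lower ones were 5 complex I subunits, 1 assembly factor, 1 gene of complex IV and 2 of complex V. The count of higher genes rested on single libraries. It fell to 14 without the first untreated shControl library, to 10, 12 and 8 without the first, the second and the third Cisplatin-treated shControl library, and to 9, 11 and 11 without the corresponding shRNF113A libraries, and it was 37 without both shControl libraries numbered 2. The count of lower genes stayed between 9 and 12 over all libraries left out.

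COX7C, a small complex IV subunit, shows how far these libraries matter. It stood at 244, 101 and 262 CPM in untreated and 213, 74.4 and 219 in Cisplatin-treated shControl libraries, against 328, 323 and 340.3 and 265, 267 and 298 in shRNF113A libraries. Both low values are those of the libraries numbered 2, and the groups did not overlap at either treatment. The depletion log2 fold change was 0.71 ± 0.25 (SE, adjusted p = 0.0315), and without both libraries it was 0.37 (adjusted p = 5.6e-05). The call was lost, at values from 0.69 to 0.72, without any one of 5 of the 6 shRNF113A libraries. Within single treatments it did not pass the test, with adjusted p of 0.176 in untreated and 0.136 in treated cells.

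Rises of complex I genes with at least 10 CPM followed. NDUFA3, a subunit of the membrane arm, stood at 37.5, 43.2 and 38.9 and 35.9, 33.7 and 34.6 CPM in shControl libraries, untreated and treated, against 48.8, 53.7 and 54.4 and 49.5, 46.7 and 57.2 in shRNF113A libraries. All 6 shRNF113A libraries lay above all 6 shControl libraries, and the log2 fold change was 0.48 ± 0.07 (SE, adjusted p = 1.2e-04). NDUFAB1 was at 80.1, 107 and 92.9 and 86.7, 90.8 and 83.8 CPM in shControl against 110.4, 108 and 129 and 114, 107 and 134 in shRNF113A libraries, with a log2 fold change of 0.38 ± 0.08 (SE, adjusted p = 0.00214). NDUFA12 rose again, at 0.26 ± 0.06 (SE, adjusted p = 0.00406). NDUFV1, the subunit that binds NADH and the flavin, rose from 153 ± 10.8 CPM (SD, n = 3) to 175 in untreated and from 152 to 185 in treated cells, at 0.24 ± 0.07 (SE, adjusted p = 0.00883).

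The largest falls among called genes upon depletion were again NDUFAF3, at −0.50 ± 0.06 (SE, adjusted p = 1.9e-05), and NDUFS1, the core subunit with the most iron-sulphur clusters. NDUFS1 stood at 153, 135 and 127 CPM in untreated and 168, 138 and 148 in treated shControl libraries, against 110.3, 102 and 112 and 101, 102 and 104 in shRNF113A libraries. No shRNF113A library reached a shControl library, and the log2 fold change was −0.46 ± 0.07 (SE, adjusted p = 1.5e-04). ATP5G2 and ATP5G3 fell by 0.37 ± 0.08 (SE, adjusted p = 0.00181) and 0.29 ± 0.06 (SE, adjusted p = 0.00214) on the log2 scale, while ATP5G1, at −0.13 (adjusted p = 0.0961), did not pass the test. NDUFA10, an accessory subunit of the membrane arm, was at −0.27 ± 0.05 (SE, adjusted p = 0.00132), and COX7A2L, which joins complexes III and IV into supercomplexes, at −0.26 (adjusted p = 0.00105). The core subunits NDUFS3, NDUFS7, NDUFS8 and NDUFV2 were at 0.09, 0.28, 0.06 and 0.06, and none of them passed the test. UQCRC1, UQCRC2 and UQCRFS1 were at 0.06, 0.14 and −0.07, also not called, and neither were the catalytic subunits ATP5A1 at −0.15 and ATP5B at 0.23. In treated cells alone ATP5A1 was lower, at −0.30 (adjusted p = 0.00303).

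**Figure D3:**
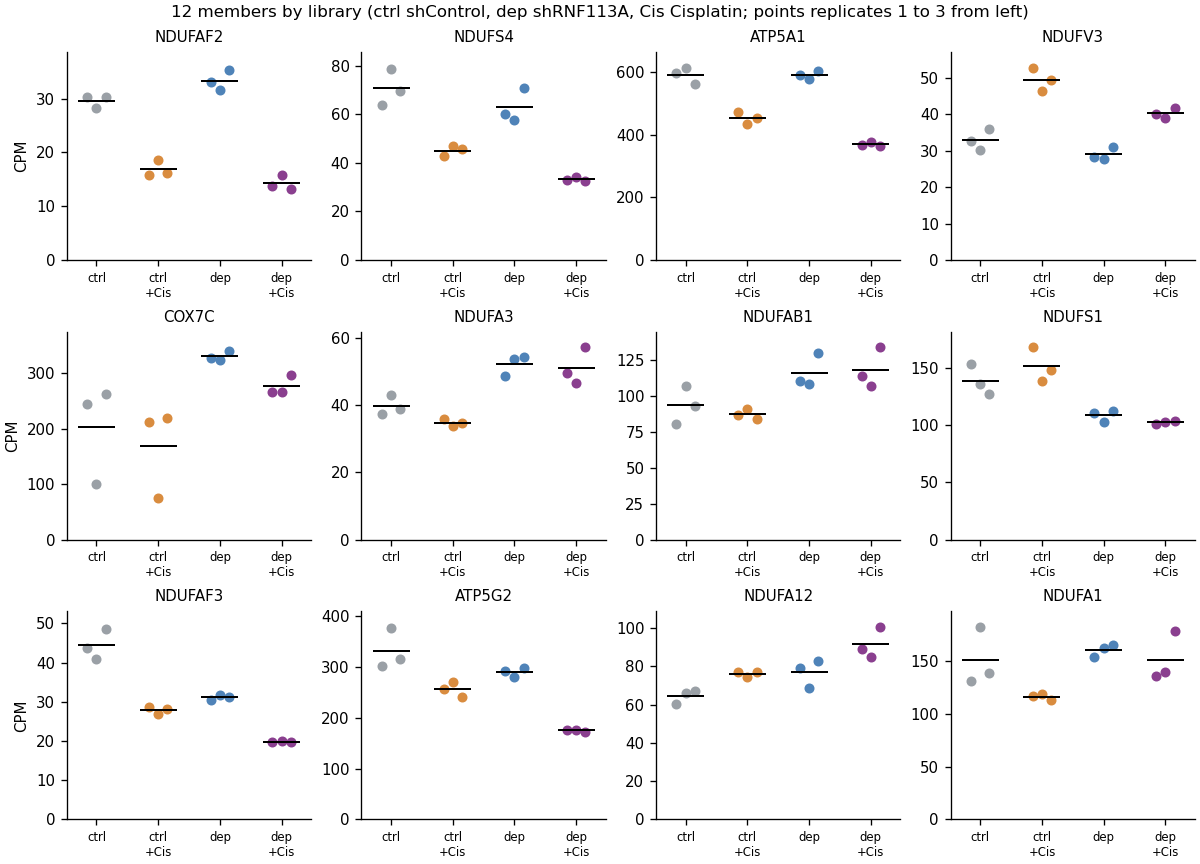
CPM of 12 genes, 1 panel each, with the 4 conditions on the x axis (ctrl for shControl, dep for shRNF113A, Cis for Cisplatin), a point for each library and a bar for the mean of 3. NDUFAF2, NDUFS4, ATP5A1 and NDUFAF3 are lower with Cisplatin in both populations, NDUFA3 is higher and NDUFS1 lower in all shRNF113A libraries, and the low COX7C points are the shControl libraries numbered 2.

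Both factors moved 10 members, where 34 of 84 were called with Cisplatin and 31 upon depletion. The overlap of the 2 effects over all genes is not given here, so these 10 have no background to be set against. ATP5G2, ATP5G3, NDUFA10, NDUFAF3 and NDUFS4 were lower with each, ATP5SL, NDUFA12 and NDUFAF4 were higher with each, NDUFV3 rose with Cisplatin and fell upon depletion, and ATP5J, a subunit of the peripheral stalk, did the reverse. Together they give NDUFAF3 its range, from 44.4 ± 3.95 CPM (SD, n = 3) in untreated shControl cells to 19.8 ± 0.156 CPM (SD, n = 3) in treated shRNF113A cells, and ATP5G2 its range from 331 ± 39.6 CPM (SD, n = 3) to 175 ± 2.35 CPM (SD, n = 3). A further 24 members were called with Cisplatin alone and 21 upon depletion alone, and 29 in neither comparison. Among calls near the threshold, that of NDUFA1 with Cisplatin (−0.23, adjusted p = 0.0472) was lost under 11 of 21 alternatives and that of COX4I1 upon depletion (0.15, adjusted p = 0.0484) under 17 of 21. The 2 effects come from the same 12 libraries, and no test compared their lists.

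Tested within each treatment, depletion called 4 members higher and 6 lower in untreated cells (11.9% of 84, against 27.4% of all genes) and 20 higher and 9 lower in Cisplatin-treated cells (34.5%, against 42.9%). With the size factors of DESeq2 the second split was 16 higher and 12 lower. The 4 rises in untreated cells were NDUFA3, NDUFA12, NDUFS5 and UQCRC2, and they became 7 with the replicate number as a block, 17 without both shControl libraries numbered 2, 10 without the untreated one alone, and 1 or 2 without any one of 8 other libraries. The call of UQCRC2 was among those lost (lost under 9 of 21 alternatives). The 6 falls were NDUFB3, NDUFAF3, NDUFS1, COX7A2L, NDUFA10 and ATP5G3, and they became 2 without the second untreated shRNF113A library. That of NDUFS1, −0.35, adjusted p = 0.0107, was lost without it. In complex III, 4 of 8 genes were higher upon depletion in treated cells: UQCR10 at 0.32 (adjusted p = 0.028), UQCR11 at 0.45 (adjusted p = 0.00703), UQCRB at 0.24 (adjusted p = 0.0471) and UQCRQ at 0.39 (adjusted p = 0.00424), all small subunits. The 20 rises in treated cells became 10, 12 and 8 without the first, the second and the third Cisplatin-treated shControl library, 11 and 12 without the first and the third Cisplatin-treated shRNF113A library, and 32 without both shControl libraries numbered 2. NDUFA4, described first in complex I and later as a complex IV component, was at 0.01 (adjusted p = 0.953) in untreated and 0.56 (adjusted p = 0.00125) in treated cells, a difference whose interaction term did not pass the test (0.55, adjusted p = 0.0569).

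NDUFA1, an X-linked subunit of complex I, lies next to the targeted gene. On hg19 it runs on the forward strand of chromosome X from 119005450 to 119010625, and its first 342 bp overlap RNF113A, which runs on the reverse strand from 119004497 to 119005791. NDUFA1 stood at 132, 183 and 139 CPM in untreated shControl and 154, 163 and 166 in untreated shRNF113A libraries, and at 117, 119.5 and 113 and 136, 140.3 and 179 with Cisplatin. The untreated groups overlap and the treated ones do not. Its depletion log2 fold change was 0.09 (adjusted p = 0.64) in untreated and 0.38 (adjusted p = 0.0284) in treated cells, the latter lost, at values from 0.24 to 0.38, without any one of the treated shControl libraries or of the second and the third treated shRNF113A library. Without both shControl libraries numbered 2, of which the untreated one holds the highest value of all, the change was 0.25 (adjusted p = 0.0489) in untreated cells and 0.40 (adjusted p = 0.00255) in treated cells, so NDUFA1 was then called higher in both.

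Across the 84 members the change upon Cisplatin bore little relation to gene length. Spearman's rho between the log2 fold change and the span of the gene was −0.04 over members and −0.42 over 13487 genes with a span, and upon depletion it was −0.26 and −0.29. Genes of one set of libraries are not independent replicates, so no p is given. Of the 6 members that span 50 kb or more, Cisplatin lowered NDUFAF2, NDUFS4 and NDUFA10, raised NDUFA12 and called neither COX7A2L nor NDUFAF6.

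Promoter sequence was read from RefSeq (GRCh38.p14) for the 70 of 84 tested members that matched a table of windows from 250 bases before to 50 after each start. Letters were searched on both strands, and a gene counted if any of its windows held them. The comparison was with all 27305 genes that had a window, which were not filtered for expression in these cells. The core of the NRF1 element, GCATGCG, was found for 20.0% of members against 4.74% of all genes, and the ETS core CCGGAAG for 27.1% against 12.2%. The YY1 core AAGATGG was found for 24.3% against 7.11%, the Sp1 core GGGCGG for 61.4% against 48.3% and TATAAA for 8.57% against 14%. Such matches describe letters and not binding. NRF1 and GABPA, a factor that binds the ETS core, are known as activators of respiratory chain genes. The mRNA of both was lower with Cisplatin, at −0.86 (adjusted p = 6.5e-07) and −0.32 (adjusted p = 5.6e-04), and upon depletion, at −0.32 (adjusted p = 0.00567) and −0.25 (adjusted p = 0.00612). They are the 2 of 12 listed regulators that were lower upon depletion, where 5 were higher. Whether these changes bear on the members was not tested, and members with the letters were not compared with the others.

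Other genes of the pathway were taken from lists by name. Of complex II and the cytochromes c, SDHB, SDHC and SDHD fell with Cisplatin, at −0.25 (adjusted p = 0.00115), −0.32 (adjusted p = 2.5e-04) and −0.21 (adjusted p = 0.0473), while SDHA, the flavoprotein that oxidises succinate, rose at 0.80 (adjusted p = 6.2e-07), and CYCS, cytochrome c itself, and CYC1 did not pass the test. The rise of SDHA differed between the populations, at 1.01 (adjusted p = 8.8e-08) in shControl and 0.58 (adjusted p = 7.2e-06) in shRNF113A cells, with an interaction of −0.43 (adjusted p = 0.0234). Upon depletion only CYCS passed, at −0.33 (adjusted p = 0.0026). Of 27 assembly factors outside the naming rule, 7 were higher and 7 lower with Cisplatin, and 2 higher and 7 lower upon depletion, which is 51.9% and 33.3% against 66.8% and 47.5% of all genes. The largest move was a fall of NUBPL, which delivers iron-sulphur clusters to complex I, at −2.39 (adjusted p = 1.4e-10) with Cisplatin, and the largest rise was COX19 at 0.82 (adjusted p = 8.9e-08). Of 12 regulators of mitochondrial biogenesis, 3 rose with Cisplatin (TFAM, ESRRA and PPRC1) and 6 fell, among them the coactivator PPARGC1A at −2.08 (adjusted p = 0.00112) and MYC at −0.32 (adjusted p = 0.00626). Upon depletion 5 rose, with ESRRA at 0.47 (adjusted p = 5.9e-04) and MYC at 0.34 (adjusted p = 0.00681), and 2 fell. The shares of regulators called were 75% and 58.3%.

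Side by side with other large protein complexes, the same fit called 22 higher and 24 lower of 79 tested genes with names of mitochondrial ribosomal proteins with Cisplatin, 7 higher and 4 lower of 76 of cytosolic ribosomal proteins, and 18 higher and 13 lower of 52 of proteasome subunits. Upon depletion the counts were 16 higher and 8 lower, 30 higher and 0 lower, and 7 higher and 10 lower. The shares called were 58.2%, 14.5% and 59.6% with Cisplatin, against 66.8% of all genes, and 30.4%, 39.5% and 32.7% upon depletion, against 47.5%. Differences between these lists and the respiratory chain were not tested.

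Intronic reads of these genes were most frequent when depletion and Cisplatin were combined. Intronic reads are the reads in the whole gene minus those in its exons, and are given per 100 exonic reads. Over the 72 members that could be tested, the median was 2.69, 2.51 and 2.61 in the untreated shControl libraries, 2.95, 2.90 and 4.33 with Cisplatin, 3.75, 3.92 and 3.40 in untreated shRNF113A libraries and 7.64, 7.13 and 6.90 in shRNF113A libraries with Cisplatin. The last 3 lie above the other 9, and 71 of 72 members had their highest mean there. The same count over all genes is not given. Of 10929 genes, 10658 had a positive log2 change of the ratio upon depletion in treated cells. With Cisplatin in shRNF113A cells 10129 did, so a peak in this condition is not particular to the members. Over all 10929 genes tested, the medians were 6.73, 5.8 and 6.67, then 7.78, 6.06 and 10.4, 8.85, 9.61 and 8.41 and 15.5, 15.8 and 16.7, so the members carried fewer intronic reads per exonic read than the median gene in each of the 12 libraries. These ratios are not per length of intron, and unspliced RNA and retained introns cannot be told apart in these counts. Of the other 21 members, 11 had fewer genic than exonic reads in some library, 7 had no exonic read in a library and 3 had a mean under 10 reads.

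The ratio rose upon depletion in 65 of 72 members in Cisplatin-treated cells (90.3%, against 84.6% of all genes) and in 36 in untreated cells (50%, against 30.1%). It rose upon Cisplatin in 52 in shRNF113A cells (72.2%, against 67.8%) and in 13 in shControl cells (18.1%, against 19.4%), and no member passed the test in the other direction, where none had an unadjusted p under 0.05 either (edgeR). Median log2 changes of the ratio were 1.00, 0.55, 0.78 and 0.33 in that order, and over all genes 0.97, 0.47, 0.76 and 0.29. The change common to all genes enters these counts. In untreated cells depletion raised the ratio in 34.3% of tested genes of mitochondrial ribosomal proteins, 75% of cytosolic ones and 65.1% of proteasome subunits. When intronic reads were scaled by their own total, which takes the change common to all genes out, the calls in the same order were 14 higher and 12 lower, then 5 higher and 4 lower, 20 higher and 14 lower, and 13 higher and 1 lower. Over all 10929 genes this scaling called 1396 higher and 1741 lower, 415 and 541, 2583 and 2237, and 1838 and 1063. Single libraries moved the smaller counts of members. The 36 in untreated cells became 2 without the second and 11 without the first untreated shRNF113A library, and 7 and 17 without the second and the third untreated shControl library. The 13 in shControl cells became 7 without the second or the third untreated library, 8 and 7 without the first and the third treated one, 34 without the second treated one, and 23 without both libraries numbered 2.

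Members differed in how much of this they showed. NDUFS5, a complex I subunit, had 0.295, 0.209 and 0.388 intronic reads per 100 exonic reads in untreated shControl libraries, 0.767, 0.738 and 1.10 with Cisplatin, 0.540, 0.604 and 0.487 in untreated shRNF113A libraries and 1.97, 2.32 and 2.04 in treated ones. The 4 conditions do not overlap, and Cisplatin moved the ratio by 1.55 ± 0.26 (SE, adjusted p = 1.6e-04) in shControl and 1.95 ± 0.22 (SE, adjusted p = 3.1e-07) in shRNF113A cells, the largest rises of members in both. NDUFB6, an accessory subunit of the membrane arm, went from 4.00, 3.08 and 4.04 to 7.0, 5.27 and 10.8 in shControl and from 5.09, 7.49 and 5.92 to 24.2, 21.9 and 22.8 in shRNF113A libraries, where its rise with Cisplatin was 1.91 ± 0.22 (SE, adjusted p = 5.2e-07). NDUFB5 and COX5A also rose in shControl cells, at 1.01 (adjusted p = 0.00349) and 0.98 (adjusted p = 7.6e-04). NDUFAF2 and NDUFS4, the members that fell most in expression with Cisplatin, were among the 4 with the largest rises in shRNF113A cells, at 1.69 ± 0.24 (SE, adjusted p = 7.0e-06) and 1.56 ± 0.23 (SE, adjusted p = 8.7e-06). In shControl cells they were at 0.33 (adjusted p = 0.39) and 0.49 (adjusted p = 0.139). A fall in exonic reads raises this ratio even without more intronic reads. How much of these rises it makes up was not tested.

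Upon depletion in Cisplatin-treated cells NDUFB7 rose most, from 7.17, 4.78 and 15.1 to 26.8, 27.1 and 29.9 intronic reads per 100 exonic reads. All treated shRNF113A libraries lay above the treated shControl ones, of which the third was the highest, and the log2 change was 1.75 ± 0.29 (SE, adjusted p = 3.0e-05). NDUFAF4, NDUFA6 and NDUFB6 followed at 1.70 (adjusted p = 7.2e-06), 1.62 (adjusted p = 1.3e-05) and 1.62 (adjusted p = 6.6e-06). In untreated cells the largest rises were those of UQCRFS1, from 0.868, 0.645 and 0.588 to 1.42, 2.05 and 1.34 at 1.19 ± 0.26 (SE, adjusted p = 0.00632), and of COX7A2L, from 1.45, 0.939 and 1.21 to 2.43, 3.08 and 2.22 at 1.11 (adjusted p = 0.00749), both lost without the second untreated shRNF113A library. That left their log2 changes at 0.99 and 0.97. ATP5D and NDUFA2 were at 1.00 (adjusted p = 0.0064) and 0.95 (adjusted p = 0.00959), and the call of NDUFA2 was lost without the second untreated shControl library, at 0.77. With intronic reads scaled by their own total both calls were lost, at 0.51 for ATP5D and 0.47 for NDUFA2. NDUFA1 was higher upon depletion in both treatments, at 0.78 (adjusted p = 0.0323) and 0.66 (adjusted p = 0.0196), but the calls were lost under 6 and 5 of 17 alternatives. Without both shControl libraries numbered 2 its changes were 0.51 (adjusted p = 0.0757) and 0.45 (adjusted p = 0.0513), and in treated cells the change was −0.32 with intronic reads scaled by their own total. At the other end, COX7C stayed under 1 intronic read per 100 in every library and did not pass the test in any comparison, and UQCRQ was between 2.02 and 3.86 with none of its 4 changes called. ATP5S and the assembly factor NDUFAF6 had the highest single values, up to 208 and 166. The core subunits NDUFS1, NDUFS3, NDUFS7, NDUFS8, NDUFV1 and NDUFV2 were all higher upon depletion in treated cells, from 0.66 for NDUFV2 to 1.58 for NDUFS3.

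**Figure D4:**
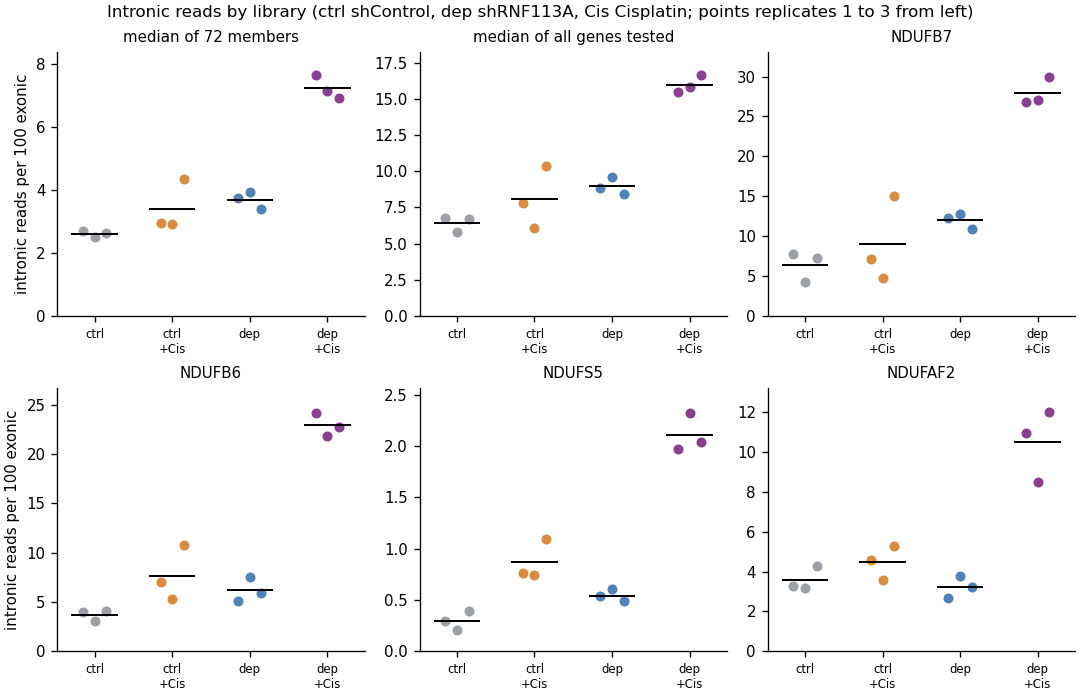
Intronic reads per 100 exonic reads in each of the 12 libraries, for the median of the 72 members, the median of all genes tested and 4 single members, with conditions on the x axis (ctrl for shControl, dep for shRNF113A, Cis for Cisplatin), points for libraries and bars for means of 3. Both medians are highest in the 3 shRNF113A libraries with Cisplatin, and the third shControl library with Cisplatin lies above the other treated shControl libraries in every panel.

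At the level of single introns, retention was measured in few of these genes and rose mostly upon depletion. The authors' table of retained introns held 27 introns of 14 members with enough reads, all with GT and AG ends and from 68 to 3072 bp long. Upon depletion 10 of 25 introns were higher in Cisplatin-treated cells (against 24.9% of all introns called) and 8 of 25 in untreated cells (against 16.2%), and none was lower. Upon Cisplatin 6 of 26 were higher and 1 lower in shRNF113A cells (against 14.4%), and none of 24 passed the test in either direction in shControl cells (edgeR, against 0.539%), where 1 had an unadjusted p under 0.05. Called introns described here lay in NDUFV1, NDUFS7, NDUFS3, NDUFB10, NDUFAF7, UQCRC1, UQCRQ, COX4I1, ATP5G1 and ATP5SL. The test compares reads of the inclusion and the skipping form. Levels are percent inclusion, normalised by the lengths of both forms as given in the table, and libraries are called a, b and c because the table does not name them.

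Short introns whose retention was called in complex I and complex III genes are printed here. They are shown as the transcribed strand reads on GRCh37 (hg19), with the first GT and the last AG in capitals, since those ends define what the spliceosome must remove. All lie between coding exons of the gene's main annotated transcript. NDUFV1 at chr11:67375950-67376022 is intron 2 of 9, NDUFS3 at chr11:47602175-47602386 is intron 3 of 6, and NDUFB10 at chr16:2011638-2011797 is intron 3 of 3, all on the forward strand. UQCRC1 at chr3:48638274-48638407 is intron 8 of 12 on the reverse strand.
NDUFV1 intron 2: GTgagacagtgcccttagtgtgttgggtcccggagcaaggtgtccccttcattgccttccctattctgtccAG
NDUFS3 intron 3: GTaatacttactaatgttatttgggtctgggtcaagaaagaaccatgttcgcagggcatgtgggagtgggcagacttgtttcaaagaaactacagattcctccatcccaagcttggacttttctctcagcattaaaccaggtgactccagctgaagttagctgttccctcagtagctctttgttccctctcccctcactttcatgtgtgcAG
NDUFB10 intron 3: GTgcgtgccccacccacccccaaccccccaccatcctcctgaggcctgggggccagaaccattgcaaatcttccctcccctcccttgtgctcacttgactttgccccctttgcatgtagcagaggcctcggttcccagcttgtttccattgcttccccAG
UQCRC1 intron 8: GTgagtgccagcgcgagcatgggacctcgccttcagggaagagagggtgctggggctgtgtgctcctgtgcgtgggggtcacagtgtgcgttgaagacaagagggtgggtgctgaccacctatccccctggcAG

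NDUFV1 intron 2, of 73 bp, was included at 10.1, 6.56 and 9.70% in untreated shControl libraries a, b and c and at 16.5, 16.0 and 14.9% in untreated shRNF113A libraries. With Cisplatin it was at 11.4, 6.06 and 12.5% and 18.4, 18.9 and 14.8%. Depleted libraries lay above shControl libraries at both treatments, and the log2 change of inclusion to skipping reads was 0.98 ± 0.22 (SE, adjusted p = 4.0e-04) in untreated and 0.96 ± 0.31 (SE, adjusted p = 0.0131) in treated cells, the latter lost without treated shControl library b or treated shRNF113A library a or b. Cisplatin did not change it detectably at this depth, at 0.17 ± 0.34 (SE, adjusted p = 0.924) in shControl and 0.16 ± 0.18 (SE, adjusted p = 0.641) in shRNF113A cells. NDUFS3 intron 3 was at 1.84, 1.23 and 2.66% in treated shControl and 4.31, 4.87 and 4.42% in treated shRNF113A libraries, a log2 change of 1.33 ± 0.34 (SE, adjusted p = 0.00128), and in untreated cells it did not pass the test (0.44 ± 0.27, SE, adjusted p = 0.268). NDUFB10 intron 3 was called in untreated cells only as far as these tests go, with 7.69, 5.88 and 6.35% against 9.20, 10.2 and 9.76% (0.60 ± 0.20, SE, adjusted p = 0.0262), a call lost without any one of 5 of its 6 libraries, and was not called in treated cells (0.31 ± 0.30, SE, adjusted p = 0.443). Whether the depletion changes of these introns differ between treatments was not tested. UQCRC1 intron 8 passed upon depletion in treated cells, at 1.2 ± 0.39 (SE, adjusted p = 0.0129), from levels of at most 0.949% in shControl libraries.

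For the longer introns only the ends are given, which hold the splice donor and the tract before the acceptor. NDUFV1 intron 5 lies at chr11:67378042-67378465, NDUFS7 intron 7 at chr19:1393330-1395389, NDUFAF7 intron 5 at chr2:37468935-37469777 and COX4I1 intron 3 at chr16:85838711-85839338, each coding and in the main annotated transcript. ATP5G1 intron 2 at chr17:46970819-46972517 is an intron of another coding transcript. All are on the forward strand of GRCh37.
NDUFV1 intron 5, first 20 bases: GTaaggcctggcgtaaccct
NDUFV1 intron 5, last 30 bases: gccaccagttctcttcccatttccctgaAG
NDUFS7 intron 7, first 20 bases: GTagggccgggaccgcaccg
NDUFS7 intron 7, last 30 bases: ggaagcgagactgaggcaaggtccctgcAG
NDUFAF7 intron 5, first 20 bases: GTaattacctttatgtggat
NDUFAF7 intron 5, last 30 bases: aacattaattgttttcctctttttaaatAG
COX4I1 intron 3, first 20 bases: GTgggtattgaagggaccca
COX4I1 intron 3, last 30 bases: cctgtaaatggctgtcctctctgcccccAG
ATP5G1 intron 2, first 20 bases: GTaaggtgccgcgccgcagt
ATP5G1 intron 2, last 30 bases: ctatctcgcctgccttgcttctctttctAG

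NDUFS7 intron 7, the last of a core subunit gene, had 2.11, 1.48 and 1.94% inclusion in untreated shControl, 2.11, 1.53 and 3.38% in treated shControl, 3.48, 3.50 and 4.02% in untreated shRNF113A and 6.67, 5.61 and 6.24% in treated shRNF113A libraries. All shRNF113A libraries lay above all shControl libraries, and the log2 change upon depletion was 1.03 ± 0.26 (SE, adjusted p = 0.00148) in untreated and 1.52 ± 0.35 (SE, adjusted p = 3.2e-04) in treated cells. In shRNF113A cells it rose further with Cisplatin, at 0.79 ± 0.21 (SE, adjusted p = 0.00287). Introns 3 and 4 of the same gene were each called once upon depletion, intron 3 in untreated cells (1.2 ± 0.41, SE, adjusted p = 0.0283) and intron 4 in treated cells (1.5 ± 0.40, SE, adjusted p = 0.00246). NDUFV1 intron 5 ran from 3.79, 2.54 and 3.49% in untreated shControl to 7.88, 9.69 and 7.64% in treated shRNF113A libraries, with log2 changes upon depletion of 0.92 ± 0.23 (SE, adjusted p = 0.0017) and 1.24 ± 0.32 (SE, adjusted p = 0.00136). With Cisplatin in shRNF113A cells it rose by 0.53 ± 0.19 (SE, adjusted p = 0.0341) and NDUFS3 intron 3 by 0.65 ± 0.22 (SE, adjusted p = 0.0282), calls lost without any one of 4 and of 5 of the 6 libraries.

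NDUFAF7 intron 5 had the largest difference in level. It was at 22.3, 13.6 and 24.1% in treated shControl and 43.8, 28.7 and 48.2% in treated shRNF113A libraries, the only member intron with means 20 points or more apart, with a log2 change of 1.36 ± 0.42 (SE, adjusted p = 0.00941) on as few as 13 skipping reads in a library. The call was lost without treated shRNF113A library a or c, at 1.23 and 1.15. Library b was the lowest of each group, and the groups did not overlap. In untreated cells it was at 13.2, 12.4 and 15.6% and 20.3, 32.6 and 28.7%, a log2 change of 1.18 ± 0.36 (SE, adjusted p = 0.0109), lost without shRNF113A library b at 0.97. NDUFAF7 is a methyltransferase that acts during complex I assembly. ATP5G1 intron 2 went from 59.2, 38.4 and 55.8% to 67.9, 68.2 and 76.3% in untreated cells, at 1.29 ± 0.36 (SE, adjusted p = 0.00585), with as few as 9 skipping reads in a library, and in treated cells it did not pass the test (0.62 ± 0.45, SE, adjusted p = 0.305). That call was lost without shControl library b or shRNF113A library c. The main COX4I1 intron 3 stayed under 2% in every library but was called upon depletion in both treatments, at 0.54 ± 0.20 (SE, adjusted p = 0.0483) and 0.97 ± 0.29 (SE, adjusted p = 0.00588), on at least 2460 reads per library. A shorter COX4I1 event at chr16:85838760-85839338, which is not an intron of an annotated coding transcript, was also called in treated cells (2.72 ± 1.01, SE, adjusted p = 0.0319), with no skipping read in some libraries, so the size of its fold depends on the prior count. The single fall was ATP5SL intron 5 with Cisplatin in shRNF113A cells, from 15.6, 12.6 and 18.2% to 9.86, 12.7 and 9.70%, of which only library b reaches the untreated range (−0.59 ± 0.20, SE, adjusted p = 0.0253).

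Counts of called introns rested on single libraries too. The 6 rises with Cisplatin in shRNF113A cells became 2 without treated library a and 3 without untreated library c, and the fall was lost without untreated library a or c or treated library a or c. The 8 rises upon depletion in untreated cells became 5 without shControl library c, and 4 and 5 without shRNF113A libraries b and c. The 10 in treated cells became 6 without shControl library b, and 4 and 5 without shRNF113A libraries a and b. In sequence the 27 member introns had a median length of 424 bp, 49.7% GC and 80.0% pyrimidines in the 15 bases before the acceptor, against 259 bp, 56.7% and 73.3% over all 3935 introns tested. These medians were not compared by a test, and introns of one gene share their source.

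**Figure D5:**
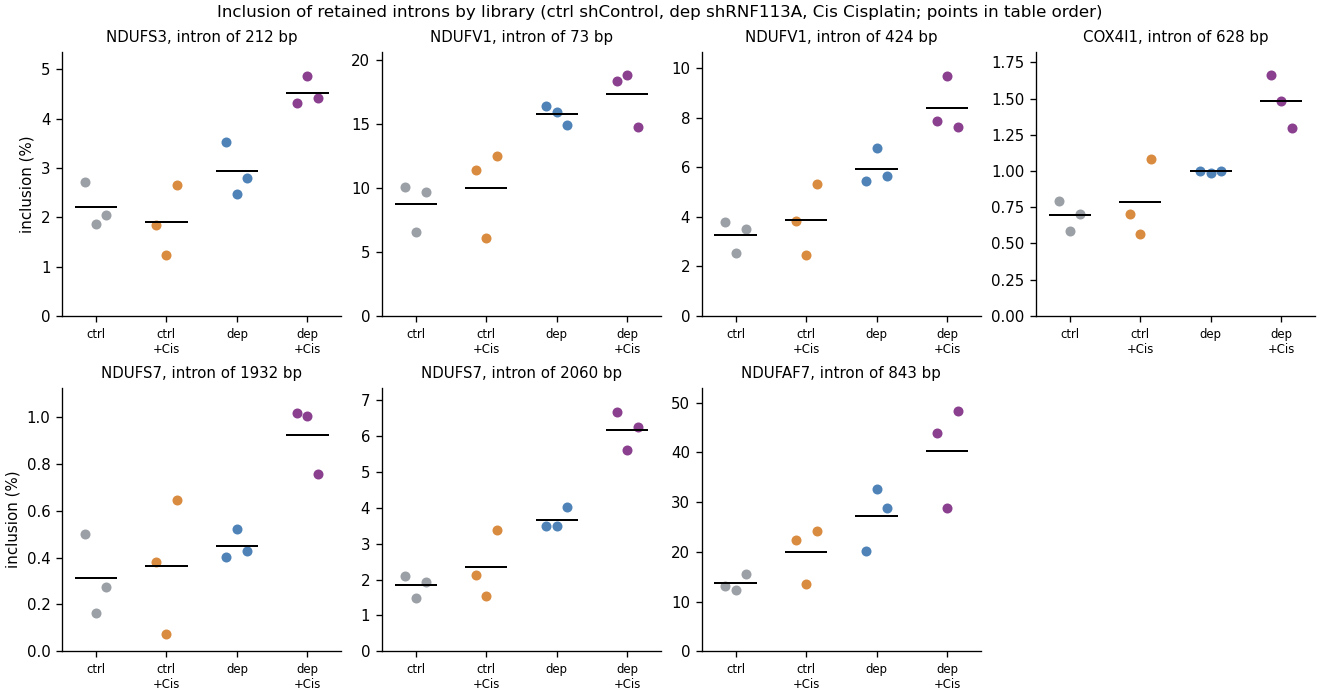
Percent inclusion of 7 introns of members in each library, 1 panel per intron, with the 4 conditions on the x axis (ctrl for shControl, dep for shRNF113A, Cis for Cisplatin), points for the libraries in table order and bars for means of 3. Both NDUFV1 introns, the NDUFS7 intron of 2060 bp and the NDUFAF7 intron lie higher in all shRNF113A libraries than in the shControl libraries of the same treatment, and the NDUFAF7 intron reaches 48.2%.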

How the data were processed

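Stranded mRNA libraries of 12 A549 samples, 3 in each of 4 conditions, were sequenced as read pairs. Per the study's methods and the submitters' processing notes, the authors removed rRNA, tRNA and mitochondrial reads, trimmed reads to 73 nt, aligned them to hg19 with STAR 2.5.2b and counted protein-coding exons and whole genes with HTSeq. The deposited values used here are raw counts per gene from STAR (the fourth column, reads on the gene's strand), exonic and genic counts from HTSeq, and inclusion and skipping counts of retained introns from rMATS. The p-values and FDR columns of the authors' own splicing comparisons were not used. Between 14.0% and 22.6% of the read pairs in the STAR files lay outside genes and stayed out of library sizes.

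Groups were taken from the sample labels. Expression was tested with edgeR 4.0.16 (R 4.3.3), by its quasi-likelihood test with TMM scaling after filtering by expression, in 1 additive fit of drug and depletion over all 12 libraries. Effects within a condition and the interaction came from the model with an interaction term. The Benjamini-Hochberg adjustment ran over all 15352 genes, and a call is an adjusted p under 0.05. Intronic reads were genic minus exonic counts. They were tested against exonic counts in an edgeR fit with a term per library, both scaled by the exonic factors, in 10929 genes with at least 1 exonic read per library, no negative difference and means of 10 or more of each kind. Retained introns were tested the same way on inclusion and skipping reads, within each comparison of 6 libraries, for events with a mean of 10 reads or more. CPM and RPKM were computed from the counts. The fits of expression, of the intronic ratio and of retained introns were run on simulated counts with known depletion changes. Those counts were drawn independently for each library, so deviations shared by libraries of the same number were not simulated. The interaction, the pairing and the sequence searches were not checked this way.

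The members and gene lists were chosen with earlier results of these data known. Genes were named by rule: the 5 largest called rises and falls of each effect with at least 10 CPM and no overlap of libraries, the 4 largest called rises of the ratio, the 4 called introns with the largest difference and at least 20 reads per library, and a fixed set of core subunits, c-ring genes and isoform pairs. Other members were named after their values were seen. Some items are not reported here. Same-numbered libraries deviated together between untreated and treated shControl cells (r of 0.63, 0.73 and 0.48 over 9779 genes) and for some numbers between untreated and treated shRNF113A cells (0.41, −0.06 and 0.30), but not between the populations (−0.20 to 0.14). Only the shControl libraries met the rule that every pair exceed 0.1, and they were taken as pairs in an added alternative. Alternatives covered scaling, filters, DESeq2 1.42.0, unstranded and exonic counts, the replicate number as a block and each library left out. Leaving out both shControl libraries numbered 2, the exonic counts and the pairs were chosen after seeing the data.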

Additional observations from a re-analysis of the deposited data

How the results depend on the processing

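Counts of called members are given as higher and lower. With library size in place of TMM they were 19 and 15 for Cisplatin over all libraries and 11 and 14 in shControl cells, with 1 interaction call higher, as all genes' median moved by 0.10 on the log2 scale. DESeq2 in place of edgeR gave 2 and 4 for the interaction, and exonic counts gave 1 interaction call higher. Without a filter on low counts, depletion in untreated cells had 2 higher. With the replicate number as a block that count was 7, and with the shControl libraries as pairs Cisplatin in shControl cells had 8 higher, although not every same-numbered pair of the other groups deviated together. No paired analysis was possible for retained introns because their libraries carry no number. Without both shControl libraries numbered 2, members higher were 14 for Cisplatin, 37 for depletion, 8 for Cisplatin in shControl cells, 17 and 32 for depletion in untreated and treated cells and 23 for the ratio upon Cisplatin in shControl cells, and the interaction had 2 and 4. With intronic reads scaled by their own total, the ratio had 13 and 1, 20 and 14, 5 and 4, and 14 and 12, for Cisplatin in shControl and shRNF113A cells and depletion in untreated and treated cells, and the change of NDUFA1 upon depletion in treated cells turned from 0.66 to −0.32 (adjusted p = 0.193). Only that 1 change of a named gene reversed. The causes of these shifts were not tested.

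Leaving out 1 library at a time, Cisplatin had 8 to 12 higher and 21 to 26 lower, depletion 8 to 33 and 9 to 12, and the interaction 0 to 2 and 0 to 4. Cisplatin had 2 to 8 and 15 to 24 in shControl cells and 6 to 15 and 13 to 21 in shRNF113A cells, and depletion had 1 to 10 and 2 to 7 in untreated and 8 to 28 and 9 to 13 in treated cells. The ratio had 7 to 34 higher and 0 to 1 lower upon Cisplatin in shControl cells, 45 to 61 higher in shRNF113A cells, and 2 to 49 and 57 to 69 higher upon depletion in untreated and treated cells. Retained introns had 0 to 1 lower upon Cisplatin in shControl cells, 2 to 6 higher and 0 to 1 lower in shRNF113A cells, and 4 to 9 and 4 to 11 higher upon depletion in untreated and treated cells. Over all alternatives 40 of 61 named expression calls, 12 of 18 ratio calls and 3 of 12 intron calls were kept. Few skipping reads limit the intron levels.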
